A study of Phaseolus vulgaris and Phaseolus lunatus with 12 samples.

Results

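Chalcone synthase and the enzymes that follow it in flavonoid and isoflavonoid synthesis were examined in bean leaves that carried the spider mite Tetranychus urticae or none. In Phaseolus lunatus (lima bean) the genes were taken by product name (chalcone, flavanone, flavonol, flavonoid, dihydroflavonol, anthocyanidin, isoflavone, pterocarpan and vestitone enzymes, without glucosyl- and glycosyltransferases) together with the chalcone synthase domain family. In Phaseolus vulgaris (common bean) they were taken by that domain family alone, since its table describes each of these genes as a hypothetical protein. The rule gave 107 of 73321 annotated genes, 91 of 43997 in P. lunatus and 16 of 29324 in P. vulgaris. The rule itself uses no measured value, but it was chosen with earlier results of these data known.

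The study set out to compare how both species respond to the mite. In all, 4 groups of 3 libraries each were used: control and infested P. vulgaris of the cultivar California Red Kidney, and control and infested P. lunatus of the variety Peladilla. All leaves were detached first true leaves of plants grown for 3 weeks, controls included, and infested leaflets carried 50 adult females of the London strain, a colony reared on P. vulgaris, for 24 h. The labels do not say whether the libraries of a group came from separate plants, so p-values measure the spread between libraries, which may be technical.

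Chalcone synthase condenses coumaroyl-CoA with malonyl-CoA to a chalcone, which chalcone isomerase closes to a flavanone. Flavonols, anthocyanidins and condensed tannins are made from that flavanone along a first branch. In legumes a second branch starts with 2-hydroxyisoflavanone synthase and its dehydratase and leads, through hydroxylases, reductases and pterocarpan enzymes, to isoflavonoid phytoalexins, defence compounds known in beans from fungal and bacterial infection.

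Total counts were 13317991 to 17255676 per P. lunatus library and 17264823 to 19343807 per P. vulgaris library. In P. lunatus, 41 of the 91 genes had enough counts to be tested, 32 had counts below the filter and 18 had none. In P. vulgaris, 8 of 16 were tested, 3 were below the filter and 5 had no counts. Leaf identity was checked in P. lunatus with 21 chlorophyll a-b binding protein genes, which summed to between 38760 and 52469 CPM (library-scaled counts) in controls and between 14775 and 31678 in infested leaves. Of these 21, 11 (52.4%) were called lower and none higher, against 7.46% and 9.65% of all tested P. lunatus genes. The fixed list for root nodules held 8 genes with leghemoglobin in the product name. All 8 summed to between 277 and 348 CPM in controls and between 191 and 249 in infested leaves, and the 1 tested was called lower. Nearly all of this came from a leghemoglobin reductase gene. Without it, leghemoglobin genes summed to at most 0.290 CPM with 6 of 7 at zero. Seed storage protein genes summed to between 0.388 and 4.51 CPM. The fixed leaf marker list named no gene of the P. vulgaris table. In bulk tissue, a change in cell composition and a change in RNA per cell cannot be told apart.

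One P. lunatus library bears on many of the values that follow. Control library 2 was at least 4-fold above both other controls (on CPM + 0.5) in 32 of 18523 tested genes, or 0.173%. Of those 32 genes, 6 were among the 41 tested flavonoid and isoflavonoid genes, or 14.6%. Across all tested genes the library was the highest control in 29.6%, and in these 41 genes it was the highest in 22. For the genes whose values turn on it, the difference is also given without it. The library was picked from these same values, so a larger rise without it in genes high in it follows from the choice.

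In infested P. lunatus leaves, a chalcone synthase and a chalcone reductase gene rose, and 3 genes of isoflavonoid synthesis fell. With edgeR's quasi-likelihood test, adjusted over all tested genes of the species and called at an adjusted p below 0.05, 5 of the 41 P. lunatus genes (12.2%) changed, 2 higher and 3 lower, against 17.1% of all 18523 tested genes. In P. lunatus, 9.65% of all tested genes were called higher and 7.46% lower. The median log2 fold change of the 41 was −0.03, beside −0.01 for all tested genes, and over the 43 tested without control library 2 it was 0.21. At an unadjusted p below 0.05 there were 11 of 41 (26.8%), against 32.5% of all tested genes. Of the 41 genes, 2 (4.88%) were called with a change of at least 2-fold, against 6.82% of all tested genes. DESeq2 called 6 of the 52 genes it tested, the same 5 among them, against 18.7% of all genes. The infested and control libraries did not overlap for 13 of the 41 genes, 5 above and 8 below, against 37.9% of all tested genes (19.7% above and 18.1% below).

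**Figure D1:**
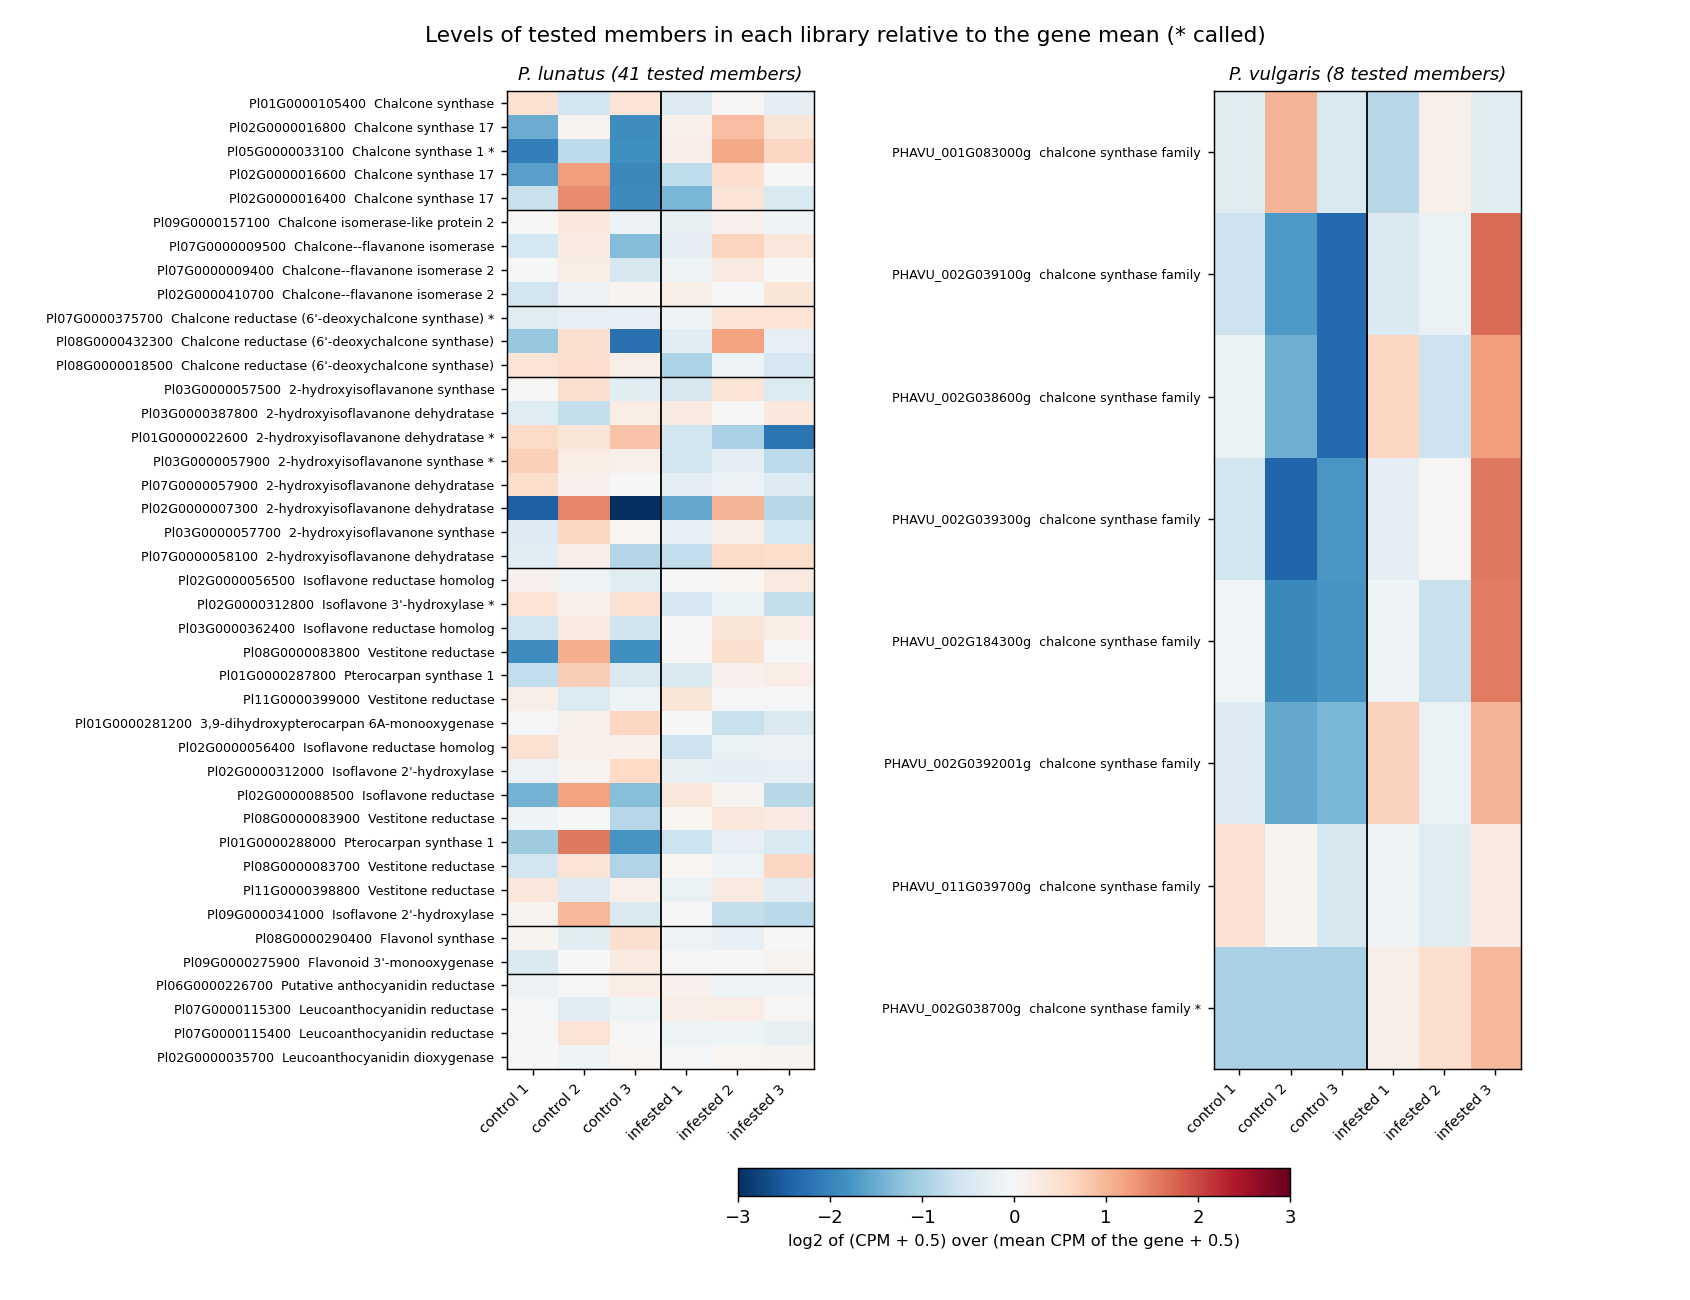
Level of every tested gene in each library, as log2 of (CPM + 0.5) over the gene's own mean CPM + 0.5, ordered by role with horizontal lines between roles and an asterisk on called genes. In P. lunatus the column of control library 2 is red for several chalcone synthase, dehydratase, vestitone reductase and pterocarpan rows where both other controls are blue; in P. vulgaris the chromosome 2 genes are highest in infested library 3.

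Chalcone synthase in P. lunatus came mostly from 1 gene, and a different one rose in infested leaves. Pl01G0000105400.v1, on chromosome 1 from 11065146 to 11067716, stood at 80.4, 39.7 and 77.0 CPM in controls and 44.3, 60.1 and 48.2 in infested leaves. It held 98.5% of the family's counts in controls 1 and 3, 67.5% in control 2 and between 77.0% and 87.0% in infested libraries. The whole family of 15 genes summed to between 58.7 and 81.6 CPM in controls and between 50.9 and 78.2 in infested leaves. The chromosome 1 gene's groups overlapped, with control library 2 the lowest of all 6. The difference of −0.37 ± 0.25 (log2 fold change ± SE) was not called (edgeR adjusted p = 0.357). Without control library 2 it was −0.63 ± 0.15 and called (edgeR adjusted p = 0.0372).

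The called chalcone synthase gene was Pl05G0000033100.v1, annotated as chalcone synthase 1, on chromosome 5 from 2701210 to 2702811. It stood at 0, 0.701 and 0.0724 CPM in controls and at 1.86, 4.05 and 2.67 in infested leaves, so every infested library lay above every control. With 0, 10 and 1 counts in controls, it passed the count filter through the infested group, so it could hardly be called lower. The log2 fold change was 3.50 ± 0.84 (edgeR adjusted p = 0.0258). Without control library 2, which held the highest control value, it was 6.14 ± 0.88 (adjusted p = 0.00758). In that fit the controls held 0 and 1 counts, so the size of the fold is uncertain. The call was lost without control library 3 (adjusted p = 0.0823), infested library 2 (0.0952) or infested library 3 (0.0849). Per kilobase, this gene reached 1.90 CPM in infested leaves, beside 26.3 CPM for the chromosome 1 gene.

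A row of 8 genes annotated as chalcone synthase 17 lies on chromosome 2 between 1045382 and 1094188, all on 1 strand and each 1170 bases long in the annotation. Their levels are reported as uncertain singly, since reads shared between near-identical copies could have been split or dropped in the authors' counting. Summed, the 8 genes stood at 1.14, 18.1 and 0.434 CPM in controls and at 4.66, 13.8 and 6.52 in infested leaves. Controls 1 and 3 were below all infested libraries and control 2 was above them all. Of the 8, 3 were tested and none was called by edgeR or DESeq2, with 1 at an unadjusted p below 0.05 in edgeR. That gene, Pl02G0000016800.v1, differed by 1.79 ± 0.74 with every infested library above every control. With 6, 29 and 2 counts in controls, it passed the count filter only with the infested libraries, so neither is read as support. Pl02G0000016600.v1 differed by 0.05 ± 1.19 and Pl02G0000016400.v1 by −0.71 ± 1.15.

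Those last values depended on control library 2. Pl02G0000016600.v1 stood at 0.114, 4.06 and 0 CPM in controls and at 0.621, 2.19 and 1.41 in infested leaves. Pl02G0000016400.v1 stood at 0.685, 4.55 and 0 in controls and at 0.233, 1.99 and 0.889 in infested leaves. Both genes were highest in control library 2, and both were singled out after their values were seen. Without control library 2, Pl02G0000016800.v1 (3.47 ± 0.58, edgeR adjusted p = 0.0127) and Pl02G0000016600.v1 (4.32 ± 1.01, adjusted p = 0.0354) were called, and Pl02G0000016400.v1 was not (1.51 ± 1.14, adjusted p = 0.428). In that fit the controls held 6 and 2 counts of Pl02G0000016800.v1 and 2 and 0 of Pl02G0000016600.v1. The size of both folds is therefore uncertain, and both genes passed the count filter through the infested group.

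P. vulgaris likewise had 1 highly expressed gene and a low row of genes on chromosome 2. PHAVU_001G083000g, on chromosome 1 from 14547185 to 14549317, stood at 107, 280 and 99.8 CPM in controls and at 76.7, 154 and 108 in infested leaves. The groups overlapped and control library 2 was the highest of all 6. The whole family of 16 genes summed to between 101 and 281 CPM in controls and between 89.1 and 164 in infested leaves. The difference of PHAVU_001G083000g was −0.52 ± 0.38 (edgeR adjusted p = 0.686), and without control library 2 it was 0.13 ± 0.25 (adjusted p = 0.917).

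The P. vulgaris row holds 8 genes on both strands of chromosome 2 between 3726784 and 3776552. Their annotated lengths run from 415 to 1527 bases. As in P. lunatus, reads shared between copies could have been split or dropped, so their single levels are uncertain. Its summed level was 6.04, 1.03 and 0.855 CPM in controls and 10.6, 8.26 and 33.0 in infested leaves. Every infested library was above every control, and infested library 3 was the highest. The deposited tables were counted on different annotations, so no test was made between species.

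**Figure D2:**
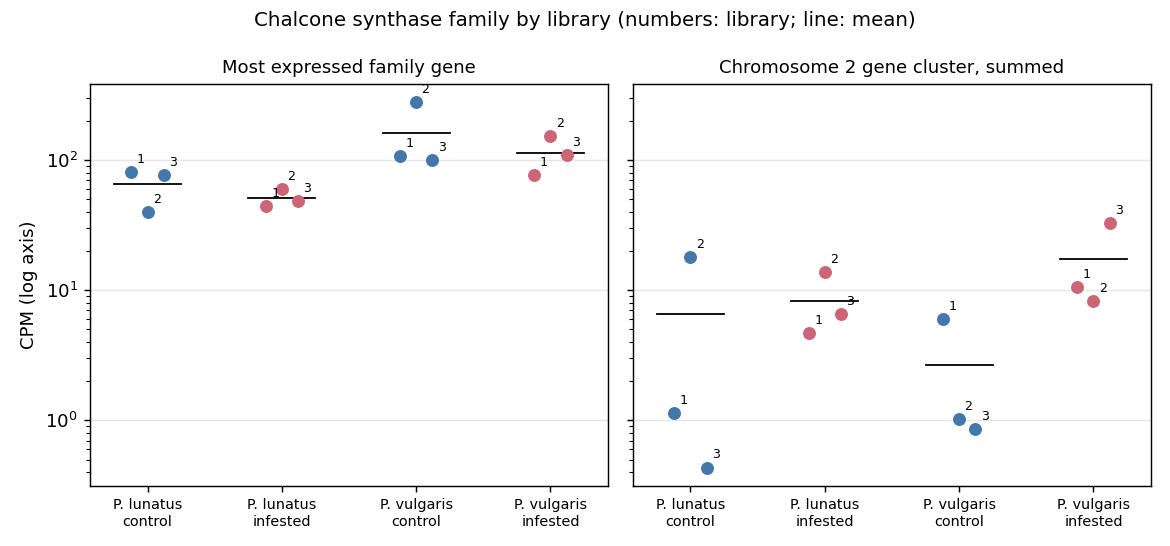
CPM on a log axis of the most expressed chalcone synthase family gene (left) and of the summed chromosome 2 row (right) in each library, with a line at the group mean and the library number beside each point. The P. vulgaris row lies higher in all 3 infested libraries than in all 3 controls, while the P. lunatus row lies at 18.1 CPM in control library 2 and at 1.14 and 0.434 CPM in both other controls.

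Of the 8 tested P. vulgaris genes, 1 (12.5%) was called, higher, against 0.976% of all 19360 tested genes (0.935% higher). That gene, PHAVU_002G038700g on chromosome 2 from 3733338 to 3734917, had 0 counts in all 3 controls and 11, 15 and 26 counts in infested leaves, which is 0.614, 0.867 and 1.43 CPM. Against a floor of 3 counts over the control group it was at least 17.7-fold higher (edgeR adjusted p = 0.0486). With no control counts it passed the count filter through the infested group alone, so it could only be called higher. The share of 12.5% is that 1 gene and is not read as an excess. Leaving out any 1 of the 6 libraries ended the call, with adjusted p-values from 0.113 to 0.166, as did testing without a filter on low counts (0.0651).

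Of the other P. vulgaris genes of the row, PHAVU_002G039100g stood at 1.69, 0.516 and 0.171 CPM in controls and at 2.01, 2.43 and 10.5 in infested leaves. Its difference of 2.62 ± 0.82 was not called with edgeR (adjusted p = 0.282) and was called with DESeq2 (2.64 ± 0.72, adjusted p = 0.0164). With edgeR the difference was 1.46 ± 0.76 without infested library 3, the highest library, and 3.83 ± 0.94 without control library 1, neither called. DESeq2 called 2 of the 11 genes it tested, against 2.1% of all genes. PHAVU_002G038600g (2.14 ± 0.85), PHAVU_002G039300g (2.79 ± 0.94) and PHAVU_002G0392001g (2.81 ± 0.95) were not called, at adjusted p-values of 0.416, 0.319 and 0.316. Leaving out 1 library moved these between 1.58 and 3.69, between 1.85 and 4.64 and between 2.27 and 5.56, in that order, with the highest value without control library 1 in each case and none called. The infested libraries lay above the controls for 4 of the 8 tested genes, against 9.09% of all tested genes. All 4 are neighbours in the chromosome 2 row, and PHAVU_002G038700g passed the count filter through the infested group alone. The other row genes had at most 9 counts in control libraries 2 and 3, so the 4 are not counted as separate support. The median difference of the 8, of which 5 lie in that row, was 2.48, beside −0.003 for all tested genes. It was 1.52 without infested library 3 and 4.24 without control library 1. PHAVU_002G184300g, outside the row, had 25, 0 and 1 counts in controls. Like the 5 row genes, it passed the count filter only with the infested libraries. A positive median was thus in part fixed by the filter and is not read as a rise of the family.

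Chalcone isomerase genes showed no call in P. lunatus among 4 tested with edgeR or DESeq2, and 0 had an unadjusted p below 0.05 with edgeR. Over all tested P. lunatus genes these edgeR shares were 17.1% and 32.5%. Pl09G0000157100.v1, a chalcone isomerase-like protein, differed by −0.13 ± 0.15 and stood at 44.7 to 63.7 CPM in controls and 43.6 to 55.7 in infested leaves. Pl07G0000009500.v1, annotated as chalcone–flavanone isomerase, stood at 11.9, 20.7 and 6.73 CPM in controls and at 14.4, 28.0 and 22.2 in infested leaves, a difference of 0.72 ± 0.38 with overlapping groups (edgeR adjusted p = 0.236). It was 1.20 ± 0.34 without control library 2 (adjusted p = 0.0614) and 0.41 ± 0.32 without control library 3 (adjusted p = 0.455). Its neighbour Pl07G0000009400.v1 differed by 0.13 ± 0.21.

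Chalcone reductase, annotated as NAD(P)H-dependent 6'-deoxychalcone synthase, acts with chalcone synthase to give the deoxychalcones from which many legume phytoalexins are built. Of 3 tested genes, Pl07G0000375700.v1 was called higher (1 gene, 33.3%), against 9.65% of all tested P. lunatus genes. It stood at 30.0, 32.4 and 32.7 CPM in controls and at 35.6, 51.1 and 50.7 in infested leaves, all above the controls. The difference was 0.53 ± 0.15 (edgeR adjusted p = 0.0423). The call was lost without any of control libraries 1, 2 and 3 and infested libraries 2 and 3 (adjusted p from 0.0853 to 0.157), and when counts were scaled to library totals (0.0591) or upper quartiles (0.0562).

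The remaining tested chalcone reductase genes were not called and differed in opposite directions. Pl08G0000018500.v1 stood at 2.34, 2.59 and 1.95 CPM in controls and at 0.621, 1.46 and 1.04 in infested leaves, all below the controls (−1.12 ± 0.38, edgeR adjusted p = 0.0781). Pl08G0000432300.v1 was highest in infested library 2, at 20.5 CPM, with control library 2 next at 12.2 (1.01 ± 0.70, adjusted p = 0.362). The difference was 2.15 ± 0.62 without control library 2 (edgeR adjusted p = 0.0641) and 0.29 ± 0.72 without infested library 2 (adjusted p = 0.837).

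In the entry into isoflavonoids, a dehydratase and a synthase gene fell. 2-hydroxyisoflavanone synthase, the cytochrome P450 also called isoflavone synthase, moves the aryl ring of the flavanone, and 2-hydroxyisoflavanone dehydratase then removes water to give the isoflavone. Of 8 tested genes of this step, 2 (25.0%) were called lower and none higher, and the median difference was −0.28. Of all tested P. lunatus genes, 17.1% were called and 7.46% were called lower, and the 25.0% rests on 2 genes.

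The dehydratase Pl01G0000022600.v1, on chromosome 1 from 1701335 to 1703294, stood at 28.4, 24.5 and 34.3 CPM in controls and at 12.7, 9.30 and 3.70 in infested leaves. It fell by 1.76 on the log2 scale, with an SE of 0.36 (edgeR adjusted p = 0.0134), and the call was lost without infested library 2 (0.0514). Every infested library lay below every control. The gene overlaps Pl01G0000022500.v1 on the opposite strand by 209 bases, and the counting is not stated to use strand, so reads in that stretch cannot be assigned with certainty.

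The synthase Pl03G0000057900.v1, on chromosome 3 from 6411677 to 6412990, stood at 17.2, 12.2 and 11.7 CPM in controls and at 6.91, 8.51 and 5.85 in infested leaves. It fell by 0.95, with an SE of 0.22 (edgeR adjusted p = 0.0209), and the call was lost without infested library 3 (0.0887). No infested library reached the lowest control. Its neighbours in the same row on chromosome 3, Pl03G0000057500.v1 (−0.19 ± 0.28) and Pl03G0000057700.v1 (−0.38 ± 0.38), were not called. The called gene is 924 bases long in the annotation, beside 1931 for Pl03G0000057500.v1, so it may be a partial gene model.

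Other genes of this step were not called with all libraries. The dehydratase Pl03G0000387800.v1 stood at 14.6, 11.4 and 22.1 CPM in controls and at 23.2, 19.1 and 23.9 in infested leaves, and its difference of 0.46 ± 0.23 (edgeR adjusted p = 0.210) was called only without control library 3 (0.76 ± 0.17, adjusted p = 0.0360) among the single-library omissions. The dehydratase Pl02G0000007300.v1 stood at 0.457, 14.1 and 0 CPM in controls and at 1.32, 10.2 and 2.44 in infested leaves, high in library 2 of both groups. Its difference was −0.03 ± 1.33, and without control library 2 it was 4.19 ± 1.23 (edgeR adjusted p = 0.0686). A further synthase gene, Pl03G0000090700.v1, did not pass the filter and had 1, 190 and 0 counts in controls and 9, 5 and 6 in infested leaves, so 190 of its 211 counts came from control library 2. The last pair was singled out after the values were seen.

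**Figure D3:**
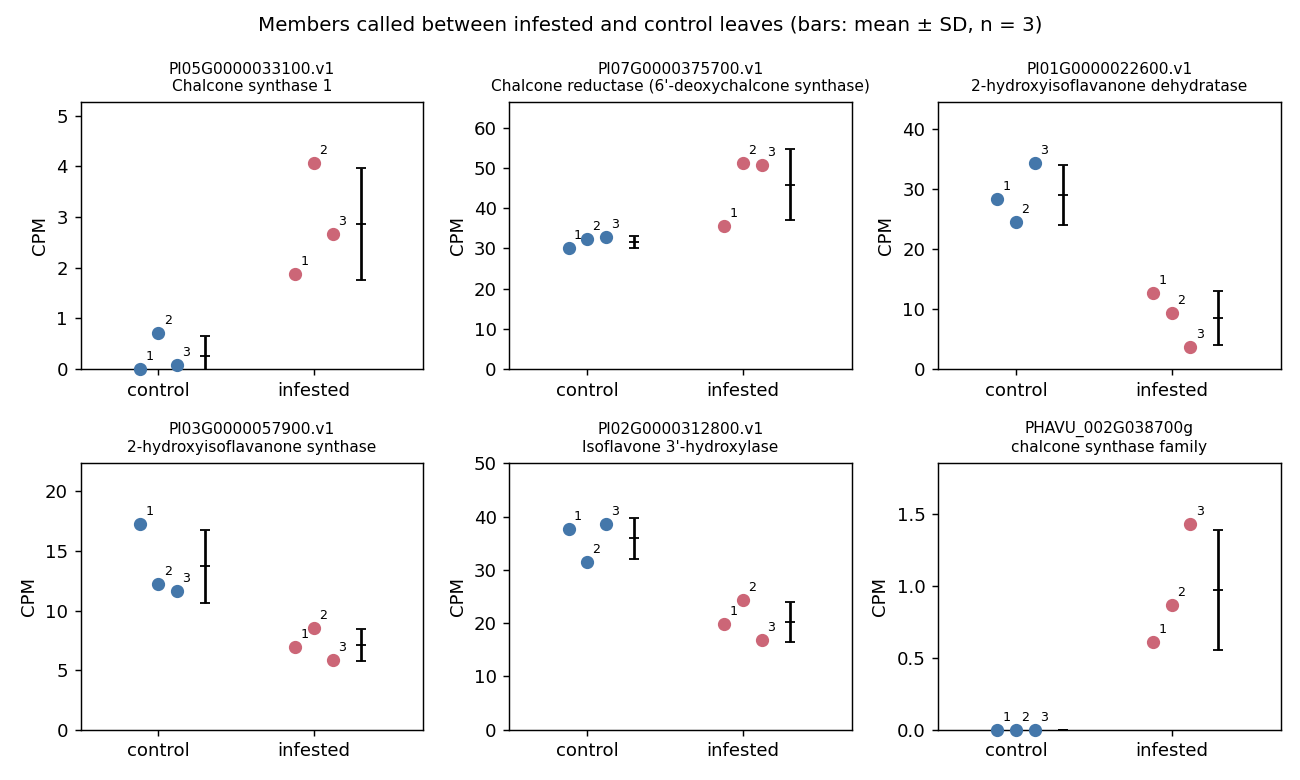
CPM of the 6 called genes in each library, numbered, with mean ± SD of the 3 libraries of each group. Infested libraries lie wholly above the controls in 3 panels, including PHAVU_002G038700g with 0 counts in controls, and wholly below them in the other 3.

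Past the isoflavone, hydroxylases, reductases and pterocarpan-forming enzymes make the phytoalexins. Of 15 tested P. lunatus genes here, 1 (6.67%) was called lower and none higher, against 7.46% and 9.65% of all tested genes. The median difference was −0.11, and 10 of the 32 genes of this group had no counts. The called gene, the isoflavone 3'-hydroxylase Pl02G0000312800.v1 on chromosome 2 from 37613484 to 37615566, stood at 37.6, 31.5 and 38.6 CPM in controls and at 19.8, 24.3 and 16.8 in infested leaves. It fell by 0.82, with an SE of 0.15 (edgeR adjusted p = 0.0101), with every infested library below every control. It was the only P. lunatus gene of the 5 whose call held in all 14 alternative fits.

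The most expressed genes of this group beside it were named isoflavone reductase homolog. Pl02G0000056500.v1 stood at 25.7 to 36.8 CPM in controls and 32.9 to 40.4 in infested leaves (0.23 ± 0.15, edgeR adjusted p = 0.334). It overlaps Pl02G0000056400.v1 on the opposite strand by 1839 bases, so the counts of this pair cannot be fully told apart. Pl03G0000362400.v1 stood at 14.8, 27.0 and 14.5 CPM in controls and at 22.0, 28.8 and 25.9 in infested leaves. Its difference was 0.45 ± 0.24, and 0.80 ± 0.16 without control library 2 (adjusted p = 0.0207).

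Vestitone reductase and pterocarpan synthase complete the pterocarpan skeleton, and both names occur among the genes high in control library 2. Other tested genes of both names were not at least 4-fold above both other controls in it. In controls, vestitone reductase Pl11G0000399000.v1 stood at 11.4, 7.43 and 9.05 CPM and pterocarpan synthase Pl01G0000287800.v1 at 6.28, 18.4 and 7.74. Vestitone reductase Pl08G0000083800.v1 stood at 4.0, 33.8 and 4.05 CPM in controls and at 15.5, 22.0 and 15.1 in infested leaves. Its difference was 0.34 ± 0.73 with all libraries (edgeR adjusted p = 0.794) and 2.12 ± 0.24 without control library 2 (adjusted p = 0.00268). Controls 1 and 3 lay below all infested libraries and control 2 above them.

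Pterocarpan synthase 1 gene Pl01G0000288000.v1 stood at 0.799, 7.64 and 0.290 CPM in controls and at 1.24, 1.79 and 1.48 in infested leaves (−0.93 ± 0.95, and 1.42 ± 0.54 without control library 2, neither called). Isoflavone reductase Pl02G0000088500.v1 stood at 0.856, 7.99 and 1.01 CPM in controls and at 4.11, 3.39 and 1.56 in infested leaves (−0.11 ± 0.81, and 1.69 ± 0.51 without control library 2, neither called). Pl08G0000083800.v1, Pl01G0000288000.v1 and Pl02G0000088500.v1 were singled out after their values were seen. The isoflavone-7-O-methyltransferase Pl07G0000133600.v1, below the filter with 46 counts in all, stood at 0, 0 and 0.0724 CPM in controls and 0, 2.33 and 0.741 in infested leaves, and was called higher by DESeq2 (adjusted p = 0.0142) and without infested library 1 (edgeR adjusted p = 0.00929).

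**Figure D4:**
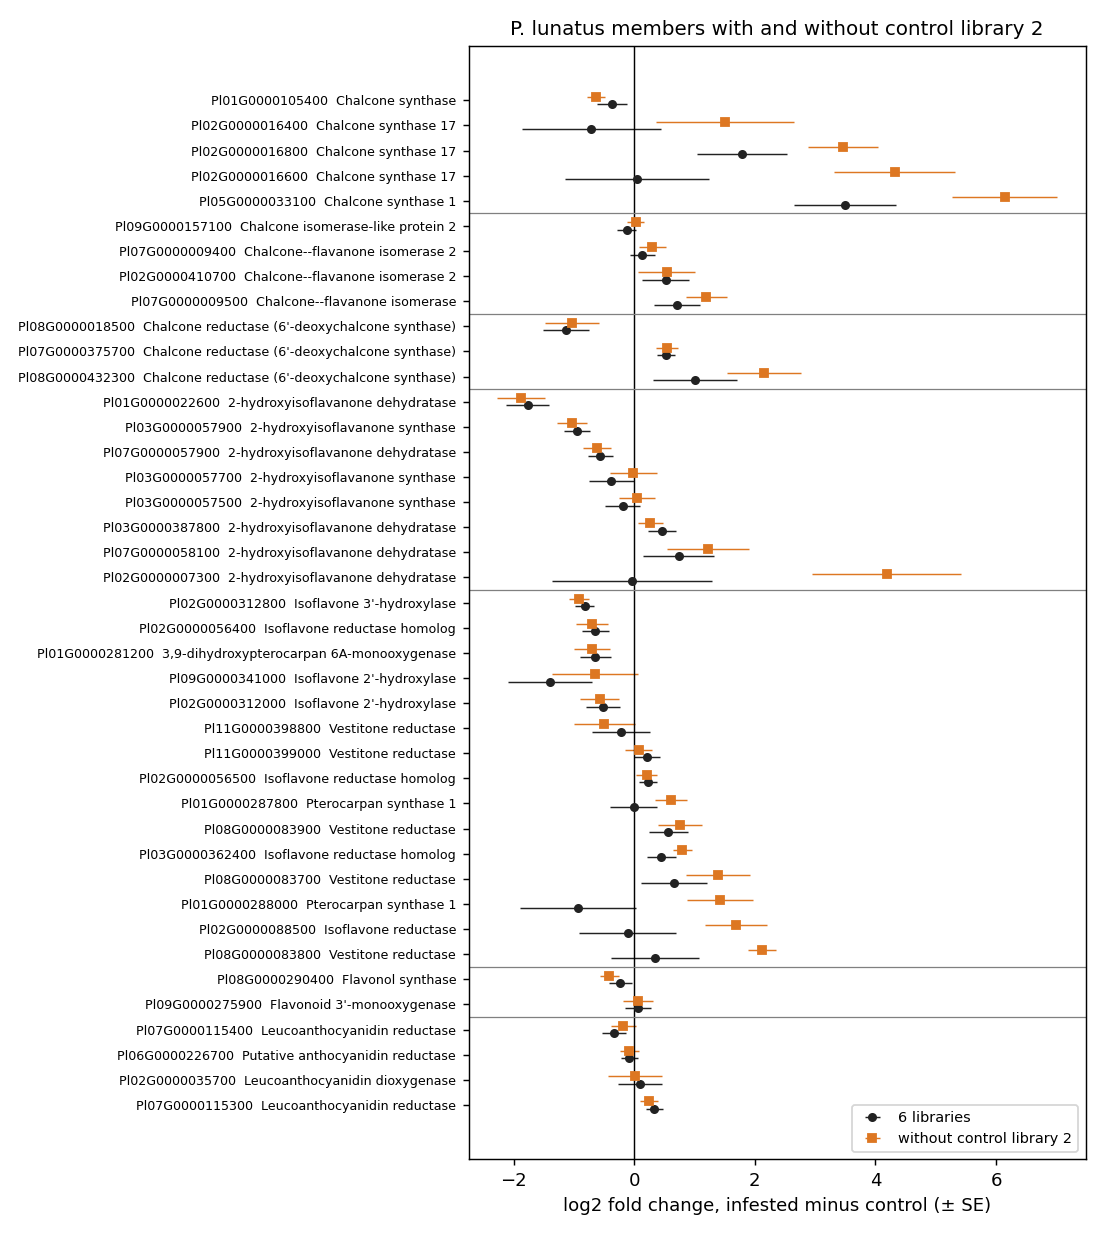
Log2 fold change (infested minus control, ± SE) of the tested P. lunatus genes by role, with all 6 libraries (circles) and without control library 2 (squares). Vestitone reductase Pl08G0000083800.v1 moves from 0.34 to 2.12 and Pl02G0000007300.v1 from −0.03 to 4.19, while flavonol synthase Pl08G0000290400.v1 moves from −0.23 to −0.41.

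Without control library 2, 9 of 43 tested P. lunatus genes (20.9%) were called, 5 higher and 4 lower, against 12.6% of all genes tested in that fit (7.43% higher and 5.15% lower). Of the 9, 4 were also called with all libraries. Control library 2 was singled out because genes of this set were high in it, so the larger share without it is no separate support. Leaving out infested library 2 gave 2 calls, against a background of 7.88%, and leaving out infested library 3 gave 2, against 7%. What sets control library 2 apart was not tested, and the labels give no batch, date or position for any library.

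The flavonol and anthocyanidin branches showed no call among 6 tested P. lunatus genes (edgeR and DESeq2), and 1 of them had an unadjusted p below 0.05 with edgeR. With edgeR, 17.1% of all tested genes were called and 32.5% had an unadjusted p below 0.05. Flavonol synthase Pl08G0000290400.v1, which oxidises dihydroflavonols, stood at 105, 78.6 and 140 CPM in controls and at 93.4, 84.5 and 98.8 in infested leaves (−0.23 ± 0.19). At 53.2 CPM per kilobase in controls it and the isomerase-like Pl09G0000157100.v1 (50.8) had the highest length-scaled levels of the 41 tested flavonoid and isoflavonoid genes of P. lunatus. The flavonoid 3'-monooxygenase Pl09G0000275900.v1, which adds a hydroxyl group to the B ring, differed by 0.06 ± 0.21.

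In the anthocyanidin branch, which leads to pigments and condensed tannins, the anthocyanidin reductase Pl06G0000226700.v1 stood at 33.9 to 44.8 CPM in controls and 34.3 to 42.1 in infested leaves (−0.08 ± 0.14). It overlaps Pl06G0000226800.v1 on the opposite strand by 2847 bases, so its counts may include reads of that gene. Leucoanthocyanidin reductase Pl07G0000115300.v1 (0.33 ± 0.14, adjusted p = 0.141) and its neighbour Pl07G0000115400.v1 (−0.33 ± 0.19, adjusted p = 0.277) overlap on opposite strands by 1429 bases. They differed in opposite directions, with the infested libraries above all controls for the former and below them for the latter. The domain usual for its name was not found for Pl07G0000115300.v1, nor for 4 more of the 91 genes.

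All 12 chalcone synthase genes of P. lunatus had counts, and 7 were below the filter. The 3 pollen-type polyketide synthases of the same family, enzymes of pollen wall synthesis, had 0, 5 and 6 counts over all libraries. Of the 91 P. lunatus genes, 53 lay in 18 runs of neighbours within 50 kb of each other, and of the 16 in P. vulgaris, 10 lay in 2 such runs.

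Of 10 tested P. lunatus genes upstream of chalcone synthase (phenylalanine ammonia-lyase, cinnamate 4-hydroxylase and 4-coumarate-CoA ligase), 4 were called higher and 1 lower, with a median of −0.07. The called share was 50.0%, against 17.1% of all tested genes (9.65% higher and 7.46% lower). The 4-coumarate-CoA ligase 2 gene Pl02G0000015400.v1, which makes the coumaroyl-CoA that chalcone synthase uses, rose from 9.26–14.3 to 29.4–41.2 CPM (1.67 ± 0.19, edgeR adjusted p = 0.00123). Cinnamate 4-hydroxylase Pl06G0000192800.v1 rose from 1.71–3.50 to 6.21–17.5 CPM (2.20 ± 0.42, adjusted p = 0.0107). Phenylalanine ammonia-lyase class 2 gene Pl07G0000334500.v1 fell by 0.54, with an SE of 0.13 (adjusted p = 0.0276), a call lost without control library 3 or any 1 infested library. The other 2 called higher were also phenylalanine ammonia-lyase genes, Pl01G0000326100.v1 (1.13 ± 0.29) and Pl08G0000434300.v1 (1.41 ± 0.37), each lost without control library 1 or 3 or infested library 2 or 3.

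Of 17 tested genes for sugar and malonyl decoration of flavonoids and phenolics, 4 were called higher and 2 lower, with a median of 0.32. The called share was 35.3%, against 17.1% of all tested genes. Leaving out 1 library gave 3 to 6 called genes. The calls of Pl08G0000152100.v1 (1.07 ± 0.26) and Pl08G0000152900.v1 (0.63 ± 0.16) were each lost without any 1 of 4 libraries. That of Pl02G0000378700.v1 (−1.14 ± 0.32) was lost without any 1 of 5. The flavonoid 3-O-glucosyltransferase Pl10G0000291100.v1 stood at 230, 122 and 172 CPM in controls and at 456, 519 and 609 in infested leaves (1.60 ± 0.23, edgeR adjusted p = 0.00341). The phenolic glucoside malonyltransferase Pl08G0000034200.v1 had no counts in controls and 2.17, 5.18 and 4.96 CPM in infested leaves, at least 63.5-fold higher against a floor of 3 counts over the control group (adjusted p = 0.00242). This gene passed the count filter through the infested group alone. Another gene of the same glucosyltransferase name, Pl03G0000170000.v1, fell by 1.25, with an SE of 0.24 (adjusted p = 0.0107), a call lost without infested library 2 (0.0510). None of 9 tested regulators and transporters was called by edgeR or by DESeq2, while 4 (44.4%) had an unadjusted p below 0.05 with edgeR, against 32.5% of all tested genes.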

How the data were processed

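The authors deposited raw read counts per gene, 1 table per species from NEBNext Ultra libraries, for 3 libraries in each of 4 groups. HISAT2, featureCounts and DESeq2 are listed in the submitters' processing notes. For versions, settings, strand use and genome build, the sources used here give nothing, and coordinates are those in the tables. Each species was fitted alone with edgeR 4.0.16 in R 4.3.3 (TMM factors, filterByExpr, quasi-likelihood test, Benjamini-Hochberg over all genes tested), and the fit was tested on simulated data. CPM used TMM-scaled totals, and the SE is the log2 fold change over the square root of F. Alternatives were other scalings and filters, DESeq2 1.42.0, a robust fit, the replicate number as a block and leaving out each library. Named genes are the called ones, the 3 most expressed of each role, those with groups apart by at least 2-fold, and, of the lists, the 3 called with the smallest p. The members, lists and rule were chosen with earlier results of these data known. No pair of libraries of the same group agreed within sampling noise, and pairs across groups were not compared. Gene sequences were not used here.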

Additional observations from a re-analysis of the deposited data

How the results depend on the processing

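Depth and 3 libraries a group limit these results, and genes below about 1 CPM rest on few counts. The P. lunatus call count of 5 was 2 at a fold of at least 2 (1 higher, 1 lower), 3 with the replicate block (1 higher) and 2 to 9 when 1 library was left out (0 to 5 higher). Only 1 was higher with library totals or upper quartiles. The count over all P. lunatus genes was 1264 at 2-fold, 1617 with the block and 1317 to 3204 without 1 library. In P. vulgaris the count of 1, higher, was 0 without a filter, at a mean CPM of at least 1 and without any 1 library, and 2 with DESeq2. Over all its genes it was 455 with DESeq2, 539 with the block and 92 to 172 without 1 library. The cause was not tested.

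Pairing by library number was looked at through correlations of deviations from the group mean. With 3 libraries a group these deviations are tied together, so in either species they cannot settle whether libraries were paired. In P. lunatus they gave no sign of a pairing: same-number correlations were −0.22, 0.0487 and −0.18, and different-number ones reached 0.358. In P. vulgaris the same-number correlations were 0.138, 0.0852 and 0.206, each above every different-number one, the highest of which was 0.0781. A pairing of the P. vulgaris libraries is thus possible, though the labels state none, and the main fit left it out. With the block, calls over all P. vulgaris genes rose from 189 to 539, and PHAVU_002G038700g stayed called. The block ended the P. lunatus calls of Pl03G0000057900.v1 (edgeR adjusted p = 0.0536) and Pl07G0000375700.v1 (0.0718), and moved the uncalled Pl02G0000007300.v1 to 1.11 and Pl02G0000088500.v1 to 0.42. Without 1 library, some uncalled log2 differences changed sign. Their ranges were −0.18 to 0.028 for Pl06G0000226700.v1, −0.23 to 0.025 for Pl09G0000157100.v1, −0.037 to 0.30 for Pl07G0000009400.v1 and −0.41 to 0.0072 for Pl08G0000290400.v1. They were −0.11 to 0.26 for Pl09G0000275900.v1, −0.55 to 0.047 for Pl03G0000057500.v1 and −0.81 to 0.13 for PHAVU_001G083000g. They were widest for the genes high in control library 2: −1.60 to 1.51 for Pl02G0000016400.v1, −0.52 to 4.32 for Pl02G0000016600.v1, −1.35 to 4.19 for Pl02G0000007300.v1, −0.11 to 2.12 for Pl08G0000083800.v1, −0.58 to 1.69 for Pl02G0000088500.v1 and −1.46 to 1.42 for Pl01G0000288000.v1.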

Other observations

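Beside the 6 flavonoid and isoflavonoid genes, 26 other P. lunatus genes were at least 4-fold above both other controls in control library 2, and those named here were chosen after their values were seen. An isoflavonoid 7-O-beta-apiosyl-glucoside beta-glycosidase gene, Pl05G0000265500.v1, which by its name releases isoflavonoids from a sugar conjugate, stood at 42.4, 681 and 70.6 CPM in controls and at 195, 1261 and 691 in infested leaves. Among the 26 were 4 genes named pathogenesis-related protein 2, 2 named WRKY transcription factor 40 and 2 dirigent protein genes. The WRKY gene Pl01G0000048600.v1 stood at 1.08, 5.96 and 0.651 CPM in controls and at 46.7, 38.8 and 50.0 in infested leaves, so control library 2 lay far below every infested library. The metal transporter gene Nramp3, Pl03G0000295100.v1, stood at 37.1, 457 and 111 CPM in controls and at 53.6, 47.1 and 71.4 in infested leaves. The zinc finger gene BRUTUS, Pl04G0000351800.v1, known in Arabidopsis from iron deficiency responses, stood at 32.6, 305 and 66.4 CPM in controls and at 32.3, 30.1 and 27.8 in infested leaves. For both of these genes control library 2 lay above all infested libraries as well.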
